A study of Homo sapiens with 12 samples.

Results

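The antisense noncoding RNA loci are the genes of the deposited tables whose whole symbol ends in -AS with an optional number, so that the name points to a gene on the opposite strand. They were picked by symbol alone, with no measured value, and 9 rows whose symbol was joined to that of another gene were left out. The rule found 1359 loci of 48114 genes, of which 21404 carried no symbol and could not be picked. Polyadenylated RNA was measured by paired-end sequencing in 12 libraries of 2 established human pancreatic cancer cell lines. PANC-1 cells, a basal-like line, had received a control siRNA (siCtrl), an siRNA against QKI (siQKI) or an siRNA against RBFOX2 (siRBFOX2), each for 48 h and in 3 libraries; the labels give 40 nM for siQKI and siRBFOX2 and no dose for siCtrl. HPAF-II cells, a classical line, had received siCtrl in 3 libraries. No group carried an engineered allele, and each line stands for 1 tumour only.

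An antisense RNA is made from the strand opposite to another gene, its sense partner, and many such RNAs are spliced and polyadenylated like messenger RNAs but are not translated. Some share a promoter region with the partner and run away from it, others run into its 3′ end, and others lie wholly inside it; known examples act on chromatin, on splicing or as sponges for microRNAs, and most have no known function. QKI and RBFOX2 are RNA-binding proteins that regulate splicing, and they recognise ACTAAC or ACTAAT and TGCATG, respectively, written here in DNA letters. Whether reads were assigned by strand is not given in the sources used here, so where an antisense locus shares exon bases with its partner, reads of the pair cannot be told apart.

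Short stretches of 7 loci are shown because they hold those letters in the exons of RNAs whose levels are described below. Each is 56 bases of the longest GENCODE transcript on the RNA strand, GRCh38, with the QKI letters or the RBFOX2 letters in capitals, chosen after the values were seen. For FGD5-AS1 the site shown is the next one after a copy that lies in a repeat.
FGD5-AS1, chr3:14943037-14943092, minus strand, exon 2 of 2: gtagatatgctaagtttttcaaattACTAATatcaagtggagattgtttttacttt
TP73-AS1, chr1:3737150-3737205, minus strand, exon 4 of 4: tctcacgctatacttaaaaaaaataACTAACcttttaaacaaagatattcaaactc
WWTR1-AS1, chr3:149660202-149660257, plus strand, exon 2 of 3: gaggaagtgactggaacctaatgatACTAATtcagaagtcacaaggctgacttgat
HOXB-AS3, chr17:48602180-48602235, plus strand, exon 4 of 4: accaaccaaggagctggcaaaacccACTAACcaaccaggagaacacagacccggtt
OIP5-AS1, chr15:41300645-41300700, plus strand, exon 4 of 4: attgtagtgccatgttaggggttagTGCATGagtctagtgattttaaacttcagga
SDCBP2-AS1, chr20:1378592-1378647, plus strand, exon 3 of 3: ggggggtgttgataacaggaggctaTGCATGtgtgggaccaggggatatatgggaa
ELOVL2-AS1, chr6:11077912-11077967, plus strand, exon 3 of 3: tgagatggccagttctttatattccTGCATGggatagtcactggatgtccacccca

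Promoter windows from RefSeq (GRCh38.p14, 250 bases before to 50 after the start) are shown for 4 loci that moved with a knockdown or separated the lines, with the GC box letters GGGCGG or CCGCCC in capitals. A GC box is a site of the general factor SP1. Windows were matched by symbol for 529 of the 683 loci tested, and GC box letters stood on either strand in 57.3% of their 611 windows and in 45.0% of all 35116 windows, while the E-box letters CACCTG or CAGGTG stood in 20.9% and 20.6%. The 611 windows are of loci with enough counts for testing and the 35116 of genes at any level, so these are unlike sets.
SPRY4-AS1, chr5:142325043-142325342, plus strand: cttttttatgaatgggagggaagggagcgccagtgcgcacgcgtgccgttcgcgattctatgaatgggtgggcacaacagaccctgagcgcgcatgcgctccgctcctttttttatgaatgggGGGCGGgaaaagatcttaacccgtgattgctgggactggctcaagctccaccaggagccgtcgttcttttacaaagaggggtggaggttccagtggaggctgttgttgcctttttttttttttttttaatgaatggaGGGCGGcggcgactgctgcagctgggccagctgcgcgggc
EP300-AS1, chr22:41197452-41197751, minus strand: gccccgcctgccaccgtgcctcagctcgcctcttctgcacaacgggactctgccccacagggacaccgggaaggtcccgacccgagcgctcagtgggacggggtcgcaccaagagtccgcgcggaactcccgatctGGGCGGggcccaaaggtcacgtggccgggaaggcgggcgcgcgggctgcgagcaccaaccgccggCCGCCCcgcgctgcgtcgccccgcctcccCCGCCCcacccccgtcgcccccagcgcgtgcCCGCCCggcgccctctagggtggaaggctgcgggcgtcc
SDCBP2-AS1, chr20:1325093-1325392, plus strand: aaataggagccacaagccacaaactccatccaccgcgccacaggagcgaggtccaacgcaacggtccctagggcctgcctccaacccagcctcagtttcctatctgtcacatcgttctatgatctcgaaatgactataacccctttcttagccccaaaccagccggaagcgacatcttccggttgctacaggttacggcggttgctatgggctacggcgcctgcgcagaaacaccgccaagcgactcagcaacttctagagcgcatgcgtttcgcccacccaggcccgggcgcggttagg
ZNF433-AS1, chr19:11987367-11987666, plus strand: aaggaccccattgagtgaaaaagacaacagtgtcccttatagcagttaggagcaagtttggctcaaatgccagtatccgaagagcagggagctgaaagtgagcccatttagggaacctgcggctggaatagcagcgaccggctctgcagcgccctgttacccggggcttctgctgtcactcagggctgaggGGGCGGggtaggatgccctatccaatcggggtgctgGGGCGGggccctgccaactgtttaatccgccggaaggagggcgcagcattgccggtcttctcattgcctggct
The EP300-AS1 window held 4 GC boxes and 77% G and C, the SPRY4-AS1 and ZNF433-AS1 windows held 2 each, and the SDCBP2-AS1 window held none of these letters.

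Values are gene counts divided by DESeq2 size factors, called normalized counts here, and they summed to between 321833858 and 348181159 in the PANC-1 and between 279777377 and 287232882 in the HPAF-II libraries. The targeted genes followed the labels. QKI read 25533 ± 869 (SD, n = 3) in siCtrl and 5034 ± 412 in siQKI libraries, and RBFOX2 read 15429 ± 76.8 in siCtrl and 2095 ± 352 in siRBFOX2 libraries. RBFOX2 was also lower in siQKI libraries, at 12642 ± 129 (log2 fold change −0.29, limma adjusted p = 0.0207). Of 8 markers of other cell types, PTPRC, CD3E, HBB, PECAM1 and CDH5 had group means under 10, DCN was at 0 in PANC-1 and at 110 ± 146 in HPAF-II libraries, and 2 were high. The macrophage marker CD68, a lysosomal protein, read 54414 ± 3765 in siCtrl, 38570 ± 514 in siQKI, 43259 ± 1134 in siRBFOX2 and 26598 ± 4560 in HPAF-II libraries, and the fibroblast collagen COL1A1 read 4093 ± 208, 8122 ± 741, 5537 ± 1079 and 5247 ± 354; their part in the results was not tested. KRT7 was at 246043 in HPAF-II and 1430 in PANC-1 siCtrl cells, and CDH2 was at 0 in HPAF-II cells. KRT8, KRT18, KRT19, CDH1, EPCAM, ESRP1, GATA6 and LYZ were also higher in HPAF-II cells, and VIM and ZEB1 lower. Not every marker parted the lines this way. The mesenchymal marker SNAI2 was higher in HPAF-II cells, at 547 against 218 in PANC-1 siCtrl cells. The classical marker TFF1 was low in both, at 103 and 37.4. With libraries rescaled to one total, the ductal marker SOX9 had a log2 ratio of 0.0023. In bulk RNA, fewer cells with a transcript and less of it per cell cannot be told apart. The labels and the study name no separate cultures or batches, so p-values measure the spread between these libraries, which may be technical.

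In all, 333 of the 1359 antisense loci were listed at 0 in every library. Under the mean of 10 normalized counts over the 9 PANC-1 libraries that was required for testing were 676 of them, beside 25570 of all 48114 genes. The knockdown results below are those of the 683 tested, while the counts of level and position in this paragraph take in all loci. Only 64 reached a mean of 1000 in PANC-1 siCtrl libraries and 64 in HPAF-II libraries. Of the 1315 loci matched to a GENCODE gene, 857 shared exon bases with some other gene on either strand. GENCODE typed 1057 of them as antisense, 132 as lincRNA and 97 as processed transcript. It typed 4 as protein-coding, with KRT10-AS1 among them. Transcribed pseudogenes were 5 unitary (such as TP73-AS1), 4 unprocessed and 1 processed (SLC44A3-AS1). Positions and shared exon bases here are those of GENCODE, and the deposited FAST DB rows can differ from them. Both gene models were found for 1271 pairs. By position, 534 of these loci lay inside the span of the sense gene, 419 overlapped its 5′ end head to head, 186 overlapped its 3′ end tail to tail, 69 spanned it whole, 40 ran divergently from a start within 1000 bases, and 20 lay farther apart. For 3 the sense gene was on the same strand or another chromosome. Per kilobase of exon, the median antisense locus stood at 5.56% of its sense gene in PANC-1 siCtrl cells (599 pairs) and at 7.23% in HPAF-II cells (580 pairs), and 94 and 85 loci stood above it.

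FGD5-AS1, which runs into the 3′ end of the gene of the CDC42 exchange factor FGD5, had the highest mean count of any antisense locus in both lines. It read 39604, 37236 and 37273 normalized counts in the siCtrl libraries, 47545, 48926 and 47024 in the siQKI libraries and 43359, 43414 and 43133 in the siRBFOX2 libraries. Neither knockdown group overlapped siCtrl, and the siQKI libraries were the highest. FGD5-AS1 rose by 0.33 on the log2 scale with siQKI (SE 0.04, limma adjusted p = 6.96e-06) and by 0.19 with siRBFOX2 (adjusted p = 0.00163). FGD5 itself read between 0 and 61.4 in the 9 PANC-1 libraries, so this antisense RNA was measured almost without its partner. Per kilobase of exon, FGD5-AS1 stood at 7413 and FGD5 at 2.72 normalized counts in PANC-1 siCtrl cells, and at 3526 and 214 in HPAF-II cells.

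TP73-AS1, tail to tail with the gene of the p53 family member TP73, read 22580, 23376 and 22528 in siCtrl, 20389, 19507 and 20858 in siQKI and 27885, 27362 and 28448 in siRBFOX2 libraries. The 3 groups did not overlap, with siQKI below and siRBFOX2 above siCtrl. TP73-AS1 fell by 0.17 with siQKI (limma adjusted p = 0.00374; with libraries rescaled by their 75th percentile the value was −0.11 and the adjusted p 0.0505) and rose by 0.29 with siRBFOX2 (adjusted p = 8.81e-05). KRT10-AS1 (14484 ± 865 in siCtrl), NUTM2A-AS1 (12050 ± 620) and MAGI2-AS3 (10896 ± 557) fell with siQKI by 0.38, 0.37 and 0.25 on the log2 scale, and their differences with siRBFOX2 were −0.01, 0.04 and 0.05 with adjusted p between 0.572 and 0.909. GENCODE types KRT10-AS1 as protein-coding. MRPL20-AS1, tail to tail with the gene of a mitochondrial ribosomal protein, read 14046, 12775 and 12930 in siCtrl, 14868, 14731 and 16279 in siQKI and 15358, 17805 and 14314 in siRBFOX2 libraries. MRPL20-AS1 rose by 0.21 and 0.25 (limma adjusted p = 0.0341 and 0.0149), the first call lost without siCtrl replicate 2 or 3 or siQKI replicate 3 and the second without siCtrl replicate 2 or 3 or siRBFOX2 replicate 2 (adjusted p between 0.0541 and 0.145). OIP5-AS1, a cytoplasmic RNA also called Cyrano, read 7506, 7887 and 7462 in siCtrl, 7136, 7306 and 7592 in siQKI, and 9377, 9228 and 8847 in siRBFOX2 libraries. OIP5-AS1 rose by 0.26 with siRBFOX2 (limma adjusted p = 0.00111) while its partner OIP5, a centromere protein, fell by 0.28 (adjusted p = 0.00173); with siQKI the difference of OIP5-AS1 was −0.05 (adjusted p = 0.479) and OIP5 fell by 0.41.

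With siQKI, 116 of the 683 tested antisense loci passed an adjusted p of 0.05 in limma on log2(normalized count + 1), and the background over all 22544 genes tested was 33.0%. Of the 116, 95 were higher and 21 lower, whereas over all genes 14.9% were higher and 18.1% lower. The median log2 fold change was 0.217 over the antisense loci and 0.025 over all genes, and 448 of 683 antisense loci had a positive value. Most antisense loci stood at low levels, and medians by level are given below. At a fold change of at least 1.5 as well, 74 antisense loci passed, 63 of them higher, against 9.03% of all genes. Other noncoding loci leaned the same way: 63 of 334 LINC loci passed, 45 of them higher, and 47 of 238 loci ending in -DT, -OT or -IT passed, 37 of them higher. The difference between the classes was not tested.

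The share of genes called moved with their level. Among loci with a mean of 10 to 50 normalized counts, 3 of 195 antisense loci passed with siQKI (all genes 2.57%), among those of 50 to 200, 22 of 206 (9.28%), and among those of 200 to 1000, 50 of 211 (29.6%). In these ranges the share of all genes called higher was 1.76%, 6.86% and 22.4%, against 2, 19 and 45 antisense loci called higher. Above 1000, 41 of 71 antisense loci passed (all genes 54.0%), and here the directions parted: 29 antisense loci were higher and 12 lower, while 20.6% of all genes were higher and 33.4% lower. Below 1000 the calls of all genes also leaned upwards, while above 1000 the antisense loci leaned upwards and all genes downwards; whether this difference is beyond chance was not tested. The median log2 fold change of antisense loci was 0.143, 0.233, 0.265 and 0.170 from the lowest to the highest range. For all genes it was 0.239, 0.215, 0.184 and −0.051, so below 1000 the medians of both were positive.

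With siRBFOX2 the same ranges gave 3 of 195 antisense loci (all higher; 1.97% of all genes, 1.37% higher), 14 of 206 (12 higher; 5.73% and 4.60%), 34 of 211 (31 higher; 20.8% and 16.8%) and 35 of 71 (34 higher; 45.0% and 17.3%). Median log2 fold changes were 0.123, 0.238, 0.215 and 0.205 for antisense loci and 0.111, 0.165, 0.159 and −0.042 for all genes.

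**Figure D1:**
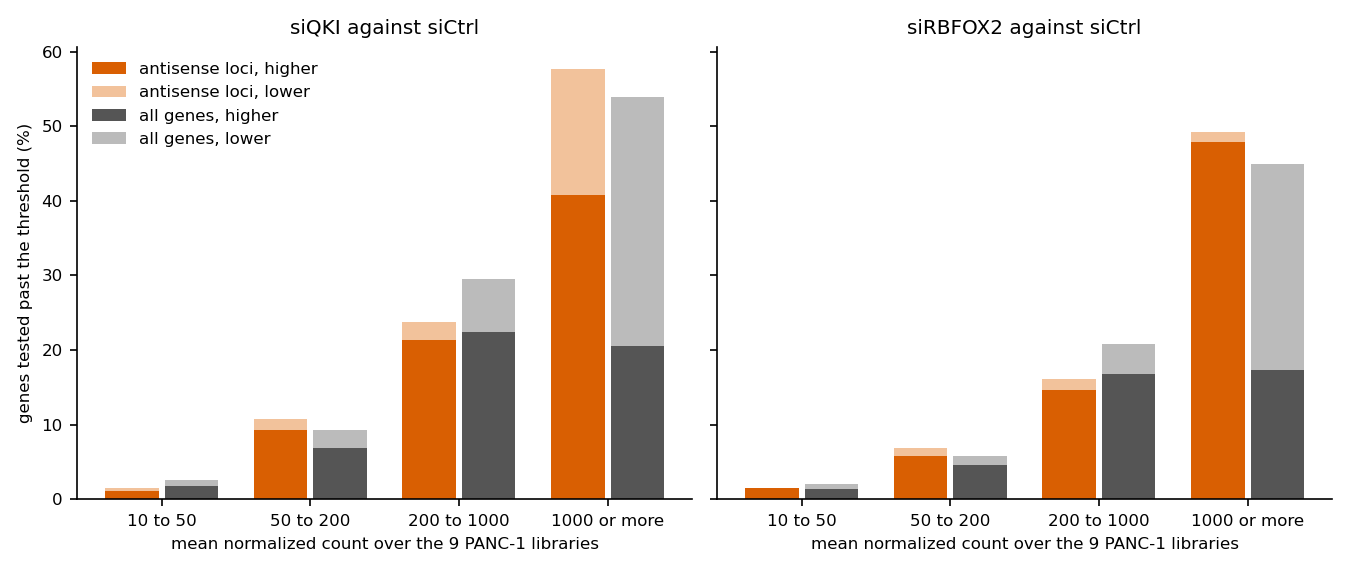
Bars give the share (%) of tested genes past the threshold in 4 ranges of mean normalized count, for antisense loci and for all genes, with siQKI (left) and siRBFOX2 (right); the dark part is higher and the pale part lower than siCtrl. Above 1000, 34 of 71 antisense loci were higher with siRBFOX2 and 1 was lower, while 17.3% of all genes were higher and 27.7% lower.

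By position, the loci overlapping the 5′ end of the sense gene head to head gave 48 of 285 calls with siQKI, 42 of them higher, with a median log2 fold change of 0.305. Divergent loci gave 8 of 30 calls, 7 higher (median 0.441), loci spanning the sense gene 10 of 39, 9 higher, and tail-to-tail loci 22 of 122, 18 higher (median 0.141). Loci inside the sense gene were the most even, with 20 of 158 calls, 12 higher and 8 lower, and a median of 0.104. Beside these stand 33.0% of all genes, 14.9% higher and 18.1% lower. The classes differed in precision, with a median SE of 0.477 inside, 0.339 head to head, 0.323 tail to tail, 0.301 spanning and 0.286 divergent. Differences between them were not tested. Loci that share no exon base with any gene, by the GENCODE models, gave 22 of 120 calls, 16 of them higher, and loci that share bases gave 92 of 542, 77 of them higher.

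Among the risers with siQKI, SSTR5-AS1 lies at the gene of the somatostatin receptor SSTR5. Its deposited row (chr16:1064084-1078731) overlaps the deposited row of SSTR5 (chr16:1072747-1081454), while in GENCODE the pair starts 50 bases apart and runs in opposite directions. SSTR5-AS1 read 154, 142 and 135 in siCtrl, 665, 517 and 464 in siQKI and 206, 219 and 147 in siRBFOX2 libraries. Every siQKI library lay above every other PANC-1 library, and the siRBFOX2 libraries overlapped siCtrl. The rise was 3.82-fold with siQKI (log2 fold change 1.91, SE 0.24, limma adjusted p = 1.68e-05), and with siRBFOX2 the log2 fold change was 0.39 (adjusted p = 0.269). SSTR5 itself read 140, 72.0 and 68.4 in siCtrl and 312, 134 and 254 in siQKI libraries (log2 fold change 1.31, adjusted p = 0.087). In siRBFOX2 libraries SSTR5 read 13.7, 69.7 and 24.1, overlapping siCtrl (log2 fold change −1.59, limma adjusted p = 0.0461).

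GAS6-AS1 lies at the 3′ end of the gene of GAS6, a ligand of the TAM receptor kinases. It read 53.6, 41.0 and 97.6 in siCtrl, 221, 260 and 266 in siQKI and 89.4, 151 and 49.1 in siRBFOX2 libraries. Only the siQKI libraries stood clear of siCtrl, with a rise of 3.89-fold (log2 fold change 2.03, SE 0.43, limma adjusted p = 0.00189). GAS6 rose by 0.26 with siQKI (adjusted p = 0.0256), a call lost without siCtrl replicate 1 or siQKI replicate 1 or 2 (adjusted p between 0.0508 and 0.112). With siRBFOX2, GAS6 had a log2 fold change of −0.27 (limma adjusted p = 0.0235) and GAS6-AS1 one of 0.54 (adjusted p = 0.42).

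USP3-AS1, tail to tail with the gene of the histone deubiquitinase USP3, read 31.6, 92.9 and 35.2 in siCtrl, 235, 157 and 196 in siQKI and 131, 173 and 192 in siRBFOX2 libraries. Each knockdown group lay wholly above siCtrl. The log2 fold changes of USP3-AS1 were 2.02 and 1.78 with siQKI and siRBFOX2 (limma adjusted p = 0.00126 and 0.00449). USP3 fell by 0.13 with siQKI (adjusted p = 0.0296), a call lost without siCtrl replicate 2 or 3 or siQKI replicate 1 or 2 (adjusted p between 0.0575 and 0.123). The comparisons share the siCtrl libraries, and the low siCtrl values of USP3-AS1 enter each of them. In GENCODE, USP3-AS1 shares 24.6% of its exon bases with USP3 and 38.1% with any gene.

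SLC44A3-AS1 moved together with its partner, a member of the choline transporter-like family. The antisense locus read 15.3, 6.0 and 18.1 in siCtrl, 96.9, 43.6 and 48.2 in siQKI and 122, 93.0 and 71.3 in siRBFOX2 libraries, and it shares no exon base with any gene. SLC44A3 read 209, 161 and 235 in siCtrl, 430, 402 and 439 in siQKI and 603, 604 and 534 in siRBFOX2 libraries. Neither gene had a knockdown library within the siCtrl range. SLC44A3-AS1 rose by 2.21 with siQKI (SE 0.59, limma adjusted p = 0.00855; without siQKI replicate 1 the value was 1.85 and the adjusted p 0.0524) and by 2.86 with siRBFOX2 (adjusted p = 0.00192). SLC44A3 rose by 1.08 and 1.53 (adjusted p = 0.000352 and 2.58e-05). In HPAF-II cells both were higher than in PANC-1 siCtrl cells, with log2 ratios of 4.42 and 3.56.

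The remaining risers named for siQKI were low in siCtrl cells and depended more on single libraries. SIGLEC10-AS1, inside the gene of a sialic acid-binding lectin that was at or near 0, read 0, 15.0 and 24.1 in siCtrl, 113, 102 and 62.9 in siQKI and 44.2, 75.5 and 66.7 in siRBFOX2 libraries. Its log2 fold change of 3.62 with siQKI (limma adjusted p = 0.00785) missed the threshold without the mean-variance trend (adjusted p = 0.0567), and was 2.18 without siCtrl replicate 1, which was at 0, and 4.51 without siCtrl replicate 3. Its value of 3.06 with siRBFOX2 (limma adjusted p = 0.0259) was 1.62 without siCtrl replicate 1 and 3.95 without siCtrl replicate 3, and the call was lost without siRBFOX2 replicate 2 or 3 (adjusted p = 0.0778 and 0.0671). OGFR-AS1, at the 5′ end of the gene of the opioid growth factor receptor, read 31.6, 33.0 and 18.1 in siCtrl and 113, 139 and 176 in siQKI libraries (log2 fold change 2.35, adjusted p = 0.0148, and 0.0551 without siCtrl replicate 3 or 0.0633 without siQKI replicate 3). SLC12A9-AS1, inside the gene of a cation-chloride cotransporter family member, read 43.1, 51.0 and 15.1 in siCtrl and 113, 99.4 and 179 in siQKI libraries (log2 fold change 1.94, adjusted p = 0.00946, and 0.053 without siQKI replicate 3). In GENCODE, SIGLEC10-AS1 shares 59.1% of its exon bases with SIGLEC10, OGFR-AS1 shares 67.8% with genes other than OGFR, and SLC12A9-AS1 shares none. Reads of shared bases cannot be told apart.

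**Figure D2:**
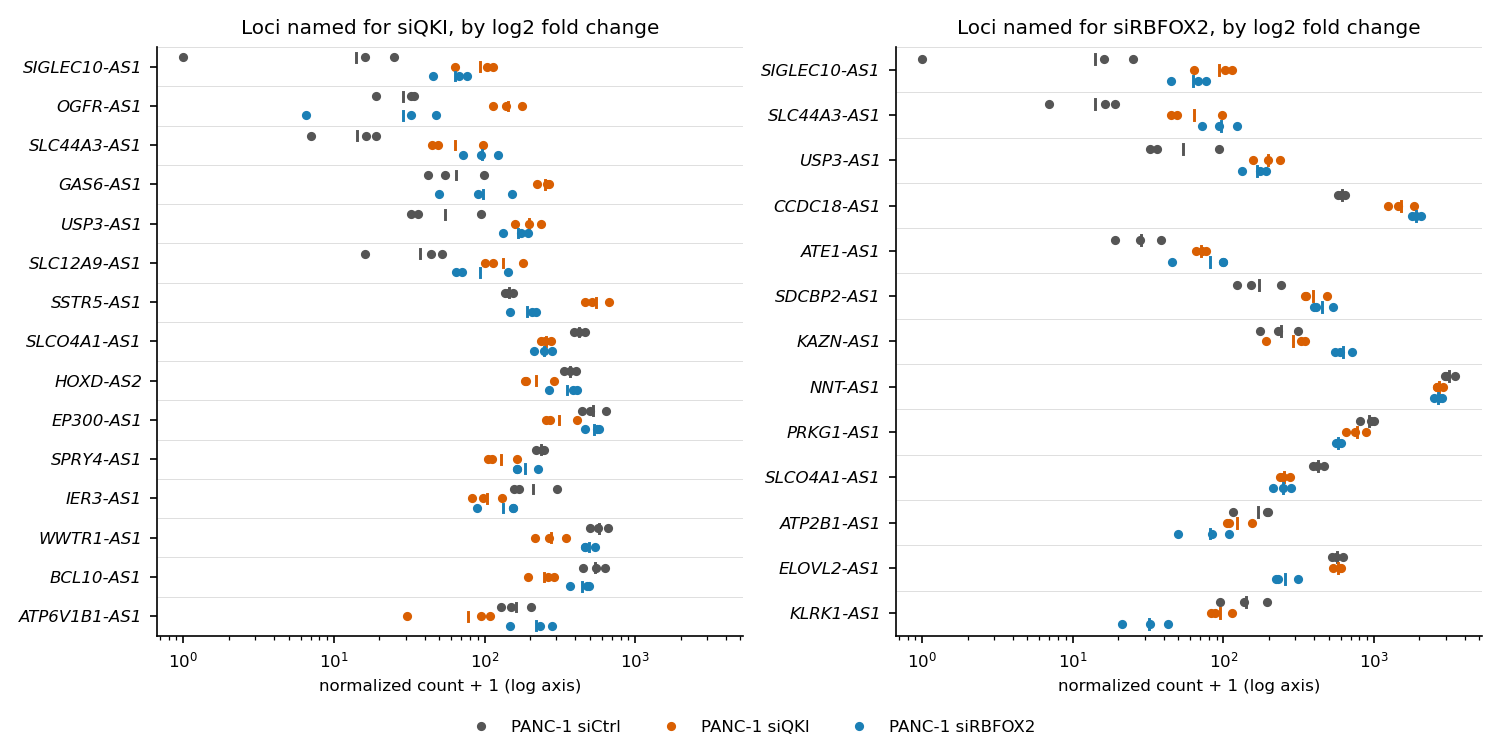
Points are libraries of PANC-1 cells and ticks are group means, as normalized count + 1 on a log axis, for 15 loci named for siQKI (left) and 13 named for siRBFOX2 (right), from the largest rise at the top to the largest fall at the bottom. In every row the knockdown libraries of that panel lie on one side of the siCtrl libraries, which is part of how the loci were chosen.

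Among the loci that fell with siQKI, WWTR1-AS1 lies inside the gene of WWTR1, also called TAZ, a transcriptional coactivator of the Hippo pathway. WWTR1-AS1 read 568, 662 and 502 in siCtrl, 268, 346 and 216 in siQKI and 465, 539 and 463 in siRBFOX2 libraries. WWTR1 read 40795, 39313 and 42135, then 16039, 15785 and 15949, then 28698, 29533 and 27854. The siQKI libraries were the lowest for both genes and did not overlap any other group. WWTR1-AS1 fell by 1.08 (SE 0.20, limma adjusted p = 0.000545) and WWTR1 by 1.35 (adjusted p = 9.09e-12). With siRBFOX2, WWTR1 fell by 0.51 (adjusted p = 4.47e-07) and the difference of WWTR1-AS1 was −0.23 (adjusted p = 0.443). The antisense locus shares exon bases with WWTR1, and reads of the shared bases cannot be told apart.

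BCL10-AS1, which overlaps the 5′ end of the gene of the NF-κB adaptor BCL10, read 547, 449 and 632 in siCtrl, 263, 194 and 287 in siQKI and 370, 490 and 475 in siRBFOX2 libraries. Its siQKI libraries lay below all others, with a fall of 1.13 (SE 0.21, limma adjusted p = 0.000581), and it shares 3.65% of its exon bases with BCL10. BCL10 fell by 0.33 with siQKI and by 0.32 with siRBFOX2 (adjusted p = 1.14e-05 and 2.28e-05), while BCL10-AS1 differed by −0.28 with siRBFOX2 (adjusted p = 0.37).

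SPRY4-AS1 in GENCODE overlaps the 5′ end of the gene of SPRY4, an inhibitor of receptor tyrosine kinase signalling, and shares no exon base with any gene. It read 218, 238 and 247 in siCtrl, 164, 112 and 105 in siQKI and 162, 163 and 226 in siRBFOX2 libraries, a fall of 0.91 with siQKI (limma adjusted p = 0.0191, and between 0.0525 and 0.0716 without siCtrl replicate 2 or 3 or siQKI replicate 2 or 3). SPRY4 fell by 1.32 and 1.22 with siQKI and siRBFOX2 (adjusted p = 1.67e-11 and 1.03e-10). EP300-AS1, tail to tail with the histone acetyltransferase gene EP300 in the gene models and with no shared exon base, read 635, 498 and 444 in siCtrl, 407, 254 and 271 in siQKI and 555, 465 and 578 in siRBFOX2 libraries. EP300-AS1 fell by 0.77 with siQKI (limma adjusted p = 0.00957, and 0.0519 without siCtrl replicate 1), while EP300 read higher by 0.15 (adjusted p = 0.0288, and 0.127 without siCtrl replicate 2 or 0.131 without siQKI replicate 2).

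SLCO4A1-AS1, inside the gene of an organic anion transporter, fell with both knockdowns. It read 462, 420 and 389 in siCtrl, 274, 249 and 236 in siQKI and 246, 212 and 281 in siRBFOX2 libraries, and no knockdown library reached the siCtrl range. The falls were 0.74 and 0.79 (limma adjusted p = 0.00911 and 0.00811). SLCO4A1 fell by 0.67 with siRBFOX2 (adjusted p = 7.49e-08) and differed by −0.03 with siQKI (adjusted p = 0.713). The antisense locus shares 22.6% of its exon bases with SLCO4A1, and reads of the shared bases cannot be told apart.

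The other falls with siQKI were less firm. HOXD-AS2 read 337, 366 and 400 in siCtrl and 185, 286 and 189 in siQKI libraries, a fall of 0.77 (limma adjusted p = 0.0202, and between 0.0716 and 0.0737 without siCtrl replicate 3 or siQKI replicate 1 or 3). ATP6V1B1-AS1 fell by 1.21 (adjusted p = 0.0494), and the call was lost without siCtrl replicate 1, 2 or 3, siQKI replicate 1, or siRBFOX2 replicate 2 or 3 (adjusted p between 0.0577 and 0.218). IER3-AS1 fell by 0.98 (adjusted p = 0.0472) with 68.1% of its exon bases inside IER3, an immediate early gene that fell by 0.73, and the call was lost without siCtrl replicate 1 or 3, siQKI replicate 2 or 3, or siRBFOX2 replicate 3 (adjusted p between 0.0536 and 0.215). In GENCODE, HOXD-AS2 shares 26.5% of its exon bases with other genes, and ATP6V1B1-AS1 shares 78.8% with genes other than ATP6V1B1.

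With siRBFOX2, 86 of the 683 antisense loci passed, against a background of 26.5% of all genes. Of these, 80 were higher and 6 lower, while over all genes 12% were higher and 14.5% lower. The median log2 fold change was 0.196 over the antisense loci and 0.011 over all genes, and medians by level are given above. At a fold change of at least 1.5 as well, 48 passed, 43 of them higher, against 5.71% of all genes. Of 334 LINC loci 42 passed, 35 of them higher, and of 238 -DT, -OT or -IT loci 30 passed, 26 of them higher. Head-to-head loci gave 36 of 285 calls (33 higher), tail-to-tail loci 24 of 122 (23 higher), divergent loci 5 of 30 (all 5 higher) and loci inside the sense gene 10 of 158 (9 higher). Differences between these positions were not tested. Loci that share no exon base with any gene gave 12 of 120 calls, 11 of them higher.

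CCDC18-AS1 rose with both knockdowns. Its deposited row (chr1:93310109-93345811) lies beyond the end of the deposited row of CCDC18, the gene of a coiled-coil protein (chr1:93180521-93278730), while in GENCODE it runs into the 3′ end of CCDC18 and shares 1.5% of its exon bases with it. CCDC18-AS1 read 576, 640 and 606 in siCtrl, 1241, 1440 and 1846 in siQKI and 1883, 2039 and 1795 in siRBFOX2 libraries. Both knockdown groups lay above siCtrl with a wide gap. The rise was 3.14-fold with siRBFOX2 (log2 fold change 1.65, SE 0.13, limma adjusted p = 4.45e-07) and 2.49-fold with siQKI (1.29, adjusted p = 2.27e-06). CCDC18 differed by −0.11 with siRBFOX2 and 0.14 with siQKI (adjusted p = 0.316 and 0.173).

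SDCBP2-AS1 overlaps the 5′ end of the gene of the PDZ protein syntenin-2, SDCBP2. It read 151, 242 and 123 in siCtrl, 350, 484 and 348 in siQKI and 411, 396 and 534 in siRBFOX2 libraries, with no overlap of either knockdown with siCtrl. SDCBP2-AS1 rose by 1.42 with siRBFOX2 (SE 0.26, limma adjusted p = 0.000787) and by 1.23 with siQKI (adjusted p = 0.00162). SDCBP2 fell by 0.76 with siRBFOX2 (adjusted p = 0.0209), a call lost without siCtrl replicate 2 or 3 or siRBFOX2 replicate 1 or 3 (adjusted p between 0.0533 and 0.0948).

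KAZN-AS1 rose in siRBFOX2 libraries. In GENCODE it lies inside the gene of kazrin, a desmosome-associated protein. Its deposited row (chr1:14348955-14419973) lies outside the deposited row of KAZN (chr1:14598685-15118047). KAZN-AS1 read 231, 311 and 174 in siCtrl, 328, 344 and 192 in siQKI and 596, 715 and 549 in siRBFOX2 libraries, and it shares no exon base with any gene. Only the siRBFOX2 libraries stood apart, with a rise of 1.41 (SE 0.26, limma adjusted p = 0.000907), against 0.27 with siQKI (adjusted p = 0.494). KAZN differed by −0.22 with siRBFOX2 and 0.05 with siQKI (adjusted p = 0.148 and 0.751). ATE1-AS1, at the gene of the arginyltransferase ATE1, read 37.3, 27.0 and 18.1 in siCtrl, 65.0, 70.6 and 75.5 in siQKI and 97.8, 98.8 and 44.5 in siRBFOX2 libraries, with values of 1.38 and 1.48 on the log2 scale. The 2 limma calls of ATE1-AS1 (adjusted p = 0.0469 with siQKI and 0.0404 with siRBFOX2) were each lost without any of 7 libraries. For siQKI these were siCtrl replicates 2 and 3, the 3 siQKI replicates and siRBFOX2 replicates 1 and 2 (adjusted p between 0.0534 and 0.142), and for siRBFOX2 they were siCtrl replicates 2 and 3, the 3 siQKI replicates and siRBFOX2 replicates 1 and 2 (adjusted p between 0.051 and 0.139). In GENCODE, ATE1-AS1 shares 24.6% of its exon bases with ATE1.

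Of the 6 falls with siRBFOX2, SLCO4A1-AS1 alone also passed with siQKI. KLRK1-AS1, which spans the gene of the lymphocyte receptor NKG2D, read 192, 135 and 93.6 in siCtrl, 113, 86.3 and 81.8 in siQKI and 31.5, 20.3 and 41.7 in siRBFOX2 libraries. The siRBFOX2 libraries were the lowest, with a fall of 2.13 (SE 0.44, limma adjusted p = 0.00197), and KLRK1 itself read 19.1, 17.0 and 23.1 in siCtrl libraries. ELOVL2-AS1, at the 5′ end of the gene of the fatty acid elongase ELOVL2, read 522, 619 and 560 in siCtrl, 595, 535 and 598 in siQKI and 221, 231 and 309 in siRBFOX2 libraries. ELOVL2-AS1 fell by 1.17 with siRBFOX2 (SE 0.18, limma adjusted p = 0.000164) and differed by 0.02 with siQKI (adjusted p = 0.936), while ELOVL2 fell by 0.64 with siRBFOX2 and by 0.46 with siQKI (adjusted p = 5.11e-07 and 6.17e-06). The pair shares no exon bases in GENCODE, but the deposited rows overlap at their ends, and whether reads were shared was not tested.

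PRKG1-AS1, tail to tail with the gene of a cGMP-dependent kinase, read 994, 949 and 811 in siCtrl and 557, 575 and 599 in siRBFOX2 libraries, a fall of 0.66 (limma adjusted p = 0.00266). ATP2B1-AS1, at the gene of a plasma membrane calcium pump, fell by 1.09 (limma adjusted p = 0.0456), a call lost without siCtrl replicate 1 or 2, any siQKI replicate, or siRBFOX2 replicate 1 or 3 (adjusted p between 0.0518 and 0.166). NNT-AS1, which overlaps the 5′ end of NNT, a mitochondrial transhydrogenase, fell by 0.24 (adjusted p = 0.0431), a call lost without siCtrl replicate 1 or 3, siQKI replicate 2 or siRBFOX2 replicate 1 or 2 (adjusted p between 0.0548 and 0.19).

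Compared with each other, siQKI and siRBFOX2 libraries differed at 63 of 683 antisense loci, against 21.5% of all genes. Of the 63, 27 were higher and 36 lower in siQKI libraries, against 9.93% and 11.6% of all genes, and 30 also passed a fold change of 1.5, against 4.33%. With libraries rescaled by their 75th percentile 59 passed, 32 higher and 27 lower, so the balance of directions turned with the scaling. Without siRBFOX2 replicate 3 the count was 41, and without siQKI replicate 2 it was 42. SSTR5-AS1 was higher in siQKI libraries by 1.52 (limma adjusted p = 0.000254) and ELOVL2-AS1 by 1.20 (adjusted p = 0.000158). TP73-AS1 was lower by 0.46 (limma log2 fold change −0.46, adjusted p = 1.26e-06), KAZN-AS1 by 1.14 (−1.14, adjusted p = 0.00505) and WWTR1-AS1 by 0.84 (−0.84, adjusted p = 0.00583). CCDC18-AS1 differed by −0.35 (adjusted p = 0.0702), and USP3-AS1 by 0.24 (adjusted p = 0.753).

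The loci took up 0.11% ± 0.0019 (SD, n = 3) of all normalized counts in siCtrl, 0.125% ± 0.00077 in siQKI and 0.130% ± 0.0029 in siRBFOX2 libraries. Each knockdown group lay wholly above siCtrl (exact permutation p = 0.1, two-sided, the smallest that 3 against 3 libraries allow). In summed counts the largest single increase with siQKI came from FGD5-AS1 and the largest decreases from KRT10-AS1 and NUTM2A-AS1, and with siRBFOX2 the largest increases came from FGD5-AS1 and TP73-AS1.

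The median ratio of antisense locus to partner rose with each knockdown. In the 632 pairs with both genes tested, the median log2 ratio of antisense to sense was −5.87, −5.86 and −5.97 in the siCtrl libraries, −5.59, −5.61 and −5.69 in siQKI and −5.67, −5.63 and −5.66 in siRBFOX2 libraries. Every knockdown library lay above every siCtrl library, and the median pair moved by 0.23 with siQKI and by 0.19 with siRBFOX2. The sense genes of these pairs had median log2 fold changes of −0.02 and −0.01. The antisense loci were mostly the lower partner, and low genes in general rose. In the ranges under a mean of 1000, medians of all genes were 0.184 to 0.239 with siQKI and 0.111 to 0.165 with siRBFOX2. Whether the pairs moved beyond this was not tested, and both shifts share the siCtrl libraries.

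**Figure D3:**
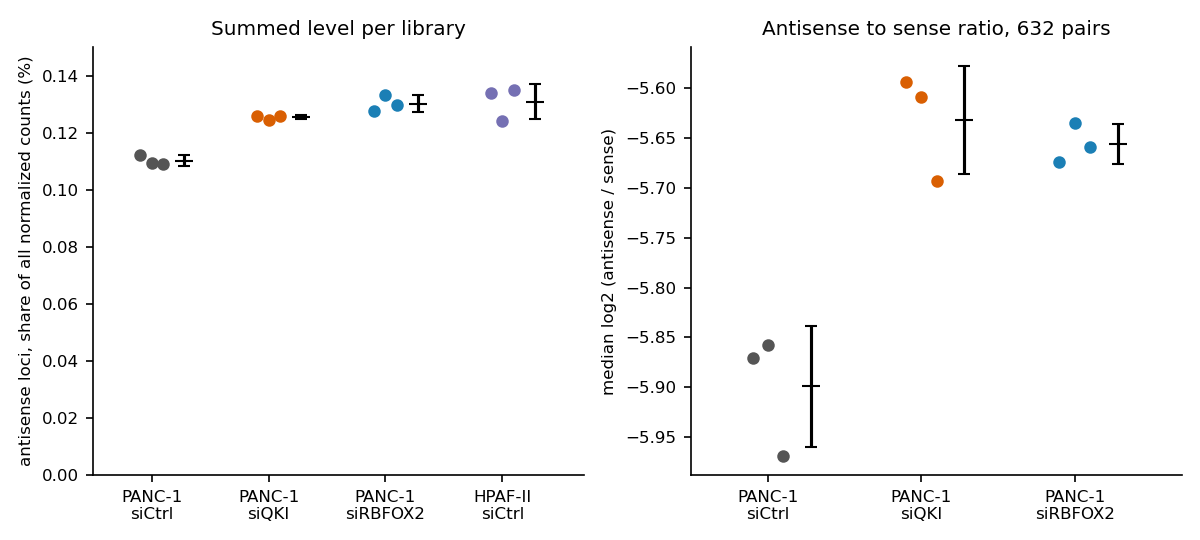
Left, the share (%) of all normalized counts taken by the antisense loci in each library; right, the median log2 ratio of antisense locus to sense gene over 632 pairs in each PANC-1 library; the bar beside each group is the mean ± SD of 3 libraries. In both plots the siQKI and siRBFOX2 libraries lie above the siCtrl libraries.

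With siQKI, 27 pairs had both genes higher, among them GAS6-AS1, SLC44A3-AS1, HOXC13-AS and DHRS4-AS1, and 8 had both lower, among them WWTR1-AS1, SPRY4-AS1, BCL10-AS1 and VIM-AS1. Opposite calls stood in 13 pairs with the antisense locus higher, among them USP3-AS1 and ATE1-AS1, and in 4 with it lower, EP300-AS1, NUTM2A-AS1, PTPRG-AS1 and TP73-AS1. TP73 rose by 0.59 (limma adjusted p = 0.0212), a call lost without siCtrl replicate 3 or siQKI replicate 1 or 2 (adjusted p between 0.0508 and 0.0891). With siRBFOX2, 16 pairs were both higher, 16 had the antisense locus higher and the sense gene lower, among them OIP5-AS1, SDCBP2-AS1 and SVIL-AS1, 4 were both lower and none had the antisense locus lower and the sense gene higher. The partner did not pass for 57 of 109 called antisense loci with siQKI and for 46 of 82 with siRBFOX2, and of all 632 partners 311 passed with siQKI and 275 with siRBFOX2. Of these partners, 144 were higher and 167 lower with siQKI, and 113 were higher and 162 lower with siRBFOX2. Whether the counts of pairs with like or opposite calls differ from these shares was not tested. Across pairs, which are not independent replicates and share libraries, the log2 fold changes of partners had a Pearson r of 0.20 (Spearman 0.23) with siQKI and 0.19 (0.14) with siRBFOX2. In the 477 pairs with shared exon bases r was 0.26 and 0.25, and in the 135 pairs without it was 0.07 and 0.06.

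**Figure D4:**
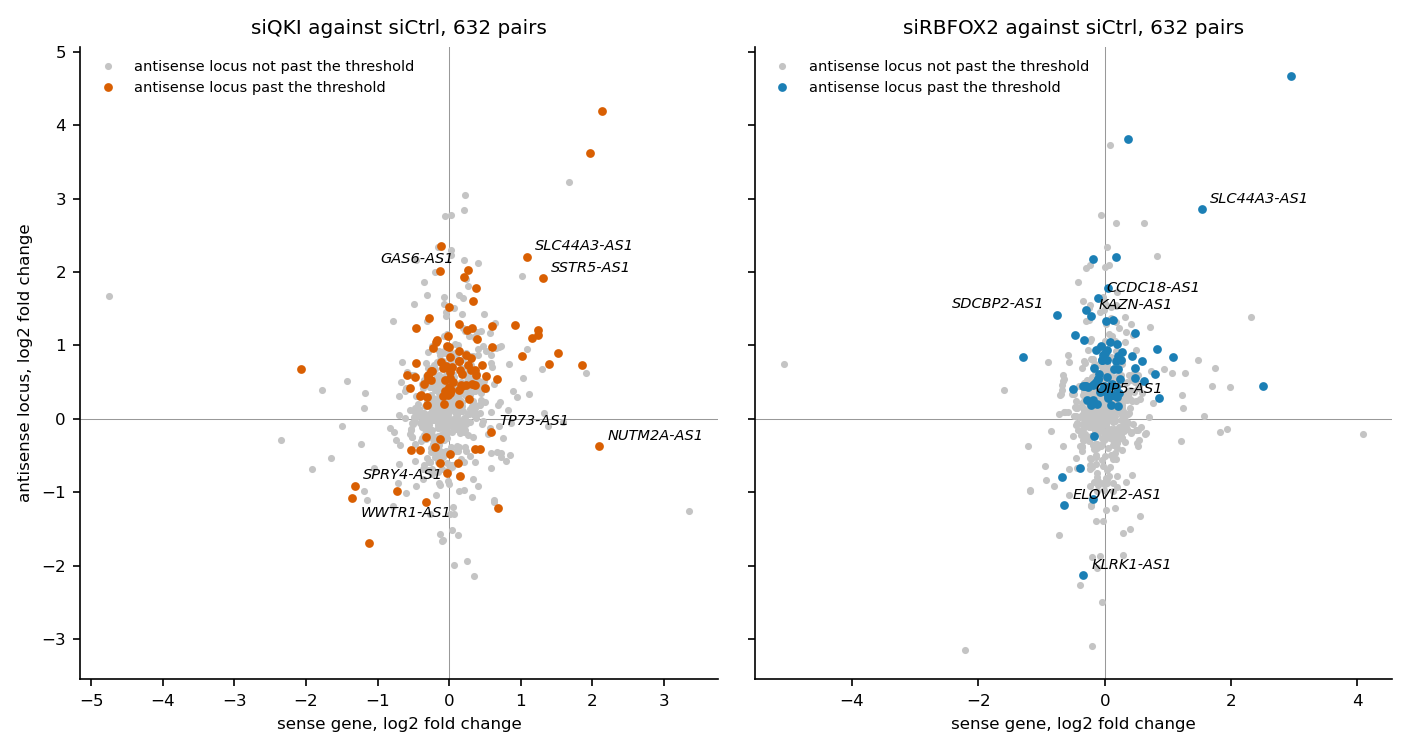
Each point is 1 of 632 pairs, with the log2 fold change of the sense gene across and that of the antisense locus upwards, for siQKI (left) and siRBFOX2 (right); coloured points are antisense loci past the threshold. Points past the threshold spread along the vertical axis, and more of them lie above 0 (89 of 109 with siQKI and 76 of 82 with siRBFOX2) than below it.

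NUTM2A-AS1 and its partner went opposite ways with siQKI. NUTM2A-AS1 read 11378, 12599 and 12174 in siCtrl and 8777, 9424 and 9758 in siQKI libraries, whereas NUTM2A, of a gene family with near-identical copies whose reads may be split, read 47.9, 147 and 83.5 and then 442, 362 and 294. The antisense locus fell by 0.37 (limma adjusted p = 0.000376) and the partner rose by 2.09 (adjusted p = 0.000819). Per kilobase of exon, NUTM2A-AS1 stood at 1759 and NUTM2A at 18.3 normalized counts in PANC-1 siCtrl cells.

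Groups of loci were also taken by function, chosen with earlier results of these data known, so their counts are a description beside the backgrounds above. Of 10 tested antisense loci of the HOX clusters, which hold the genes of body-axis patterning, HOXB-AS3, HOXC13-AS, HOXC-AS3 and HOXA-AS2 rose with siQKI and HOXD-AS2 fell (median 0.28), and HOXB-AS3 and HOXC-AS3 rose with siRBFOX2 (median 0.10). HOXB-AS3 read 611, 874 and 679 in siCtrl, 1649, 1204 and 1417 in siQKI and 1191, 1089 and 1001 in siRBFOX2 libraries. Every knockdown library lay above every siCtrl library, and the siQKI libraries were the highest (log2 fold changes 0.98 and 0.61, limma adjusted p = 0.000103 and 0.00624). HOXC13-AS rose by 0.42 with siQKI (limma adjusted p = 0.00539) beside HOXC13, which rose by 0.50. The rise of HOXA-AS2 was 0.88, and its adjusted p was 0.0569 without siQKI replicate 1. The rises of HOXC-AS3 were 0.34 and 0.38 (limma adjusted p = 0.0427 and 0.0311), the first lost without siCtrl replicate 2 or 3 or siQKI replicate 1 or 2 and the second without siCtrl replicate 3 or siRBFOX2 replicate 3 (adjusted p between 0.0547 and 0.183).

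Of 18 tested loci at transcription factor genes, 4 rose (FOXD3-AS1, FOXC2-AS1, GATA2-AS1 and DLX6-AS1) and TP73-AS1 fell with siQKI (median 0.31), and 5 rose with siRBFOX2 (TP73-AS1, FOXD3-AS1, NR2F2-AS1, GATA2-AS1 and NR2F1-AS1; median 0.22). GATA2-AS1, at the gene of a zinc finger factor of blood and endothelial lineages, read 1070, 1134 and 1228 in siCtrl, 1542, 1463 and 1492 in siQKI and 1451, 1470 and 1567 in siRBFOX2 libraries, a rise of 0.39 with each (limma adjusted p = 0.0043 and 0.00601). GATA2 read higher by 0.13 and 0.02 (adjusted p = 0.0807 and 0.857). FOXD3-AS1 rose by 0.67 and 0.79, and these calls were lost without siCtrl replicate 2 or 3 or siQKI replicate 3, and without siCtrl replicate 3 or siRBFOX2 replicate 2 (limma adjusted p between 0.0619 and 0.22). FOXC2-AS1 rose by 0.73 with siQKI, a call lost without siCtrl replicate 1 or siQKI replicate 1 or 2 (limma adjusted p between 0.067 and 0.121). NR2F1-AS1 rose by 0.17 with siRBFOX2 (limma adjusted p = 0.043), a call lost without siCtrl replicate 1 or 2, siQKI replicate 2 or 3 or siRBFOX2 replicate 1 or 3 (adjusted p between 0.0526 and 0.196).

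Of 14 tested loci at genes of the cytoskeleton, adhesion and matrix, ITGB2-AS1 and RHPN1-AS1 rose and VIM-AS1 and PTPRG-AS1 fell with siQKI (median 0.20), and PXN-AS1, AFAP1-AS1 and RHPN1-AS1 rose with siRBFOX2 (median 0.19). VIM-AS1, at the 5′ end of the gene of the intermediate filament protein vimentin, read 4355, 4329 and 4130 in siCtrl and 3862, 3453 and 3266 in siQKI libraries, a fall of 0.28 (limma adjusted p = 0.00545). It shares 32.2% of its exon bases with VIM, which fell by 0.13 (adjusted p = 0.0152, and between 0.0509 and 0.0849 without siCtrl replicate 3 or siQKI replicate 2 or 3). PTPRG-AS1 fell by 0.40 (adjusted p = 0.0174, and between 0.057 and 0.0892 without siCtrl replicate 3 or siQKI replicate 1 or 3) while PTPRG, a receptor phosphatase, rose by 0.43 (adjusted p = 0.00231). ITGB2-AS1 rose by 0.74 with siQKI, a call lost without siCtrl replicate 3 or any siQKI replicate (limma adjusted p between 0.055 and 0.128). The rises of PXN-AS1 (0.48) and RHPN1-AS1 (0.56) with siRBFOX2 were lost without siCtrl replicate 2 or 3, without siRBFOX2 replicate 2 or 3 for PXN-AS1 and without siRBFOX2 replicate 1 for RHPN1-AS1 (limma adjusted p between 0.063 and 0.1). The rise of AFAP1-AS1 with siRBFOX2 was 0.21 (limma adjusted p = 0.0205, and between 0.0624 and 0.104 without siCtrl replicate 1 or 3 or siRBFOX2 replicate 1).

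Of 22 tested antisense RNAs studied in tumour cell growth, 4 rose (GAS6-AS1, MCM3AP-AS1, FGD5-AS1 and EPB41L4A-AS1) and 4 fell (AGAP2-AS1, DLGAP1-AS2, SLCO4A1-AS1 and SPRY4-AS1) with siQKI, with a median of −0.07. With siRBFOX2, 5 rose (MAPKAPK5-AS1, OIP5-AS1, FGD5-AS1, EPB41L4A-AS1 and TPT1-AS1) and SLCO4A1-AS1 fell (median 0.16). EPB41L4A-AS1 rose by 0.27 and 0.29, and these calls were lost without siCtrl replicate 1, siQKI replicate 3 or, for the second, siRBFOX2 replicate 3 (limma adjusted p between 0.0537 and 0.0708). MCM3AP-AS1 rose by 0.46 with siQKI, a call lost without siCtrl replicate 1 or 3, any siQKI replicate or siRBFOX2 replicate 1 (limma adjusted p between 0.052 and 0.174), and MAPKAPK5-AS1 by 0.35 with siRBFOX2, lost without siCtrl replicate 1 or 2 or siRBFOX2 replicate 1 or 3 (adjusted p between 0.0551 and 0.0838). AGAP2-AS1 read 5499, 5245 and 5837 in siCtrl, 3919, 3816 and 4134 in siQKI and 5355, 5643 and 5081 in siRBFOX2 libraries, a fall of 0.48 with siQKI (SE 0.06, limma adjusted p = 3.07e-05) and a difference of −0.04 with siRBFOX2 (adjusted p = 0.677). DLGAP1-AS2 read 5659, 5581 and 6040 in siCtrl and 5064, 4258 and 3765 in siQKI libraries, a fall of 0.41 (limma adjusted p = 0.00279).

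The letters read by QKI and RBFOX2 were counted in the longest GENCODE transcript of each locus, on the RNA strand. ACTAAC or ACTAAT stood in 35.2% of 662 tested antisense loci, in 35.5% of 93 that rose with siQKI, in 28.6% of 21 that fell and in 46.9% of 16591 tested genes with a transcript. Per kilobase the 4 groups held 0.274, 0.275, 0.185 and 0.246 sites. TGCATG stood in 32.6% of the antisense loci, in 45.6% of 79 that rose with siRBFOX2, in 1 of 6 that fell and in 54.6% of all genes, or 0.261, 0.271, 0.0634 and 0.268 sites per kilobase, and the transcripts that rose were longer (median 2432 bases against 1742). These are counts of letters, not of bound sites.

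HPAF-II and PANC-1 tables were normalized separately, so libraries were rescaled to 1000000 over the genes of both tables and the lines compared by ratio, with no test; the line and its table cannot be told apart. Of 772 antisense loci with a mean of 10 in either line, 496 differed by at least 2-fold, against 53.2% of all genes. Of these, 279 were higher and 217 lower in HPAF-II cells, beside 26.1% and 27.1% of all genes, and the median log2 ratio was 0.319 for the antisense loci and 0.015 for all genes. The libraries of the lines did not overlap at 450 antisense loci, against 63.7% of all genes. Loci inside the sense gene differed at 138 of 192, 86 of them higher in HPAF-II cells, and head-to-head loci at 183 of 304, 94 of them higher.

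Among the loci higher in HPAF-II cells, AQP5-AS1, at the gene of the water channel of secretory glands, read 1445, 1174 and 1506 normalized counts in HPAF-II and 0, 0 and 12.1 in PANC-1 siCtrl libraries. MUC5B-AS1, all of whose exon bases lie in exons of the mucin gene MUC5B, read 407, 973 and 206 and was listed at 0 in PANC-1 siCtrl cells, and MUC5B read 94279, 77433 and 41370 against 150, 223 and 218. CDKN2B-AS1, also called ANRIL, read 411, 384 and 440 in HPAF-II cells and was listed at 0 in all 9 PANC-1 libraries, and so was its partner, the cell cycle inhibitor CDKN2B, which read 22824, 36271 and 26347 in HPAF-II cells.

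SSTR5-AS1 also separated the lines. In normalized counts per 1000000 it stood at 47.7 ± 9.41 in HPAF-II and 0.418 ± 0.0334 in PANC-1 siCtrl cells, a ratio of 114, while SSTR5 stood at 1.57 ± 1.10 and 0.272 ± 0.121. Per kilobase of exon, SSTR5-AS1 stood at 3362 and SSTR5 at 328 normalized counts in HPAF-II cells, and at 35.7 and 68.6 in PANC-1 siCtrl cells. The order of the partners thus turned between the lines. PAX8-AS1, listed in 2 rows at the gene of the lineage factor PAX8, read 10699, 9908 and 11392 in the first row in HPAF-II and 2.87, 4.0 and 6.04 in PANC-1 siCtrl libraries. DIAPH2-AS1 read 485, 490 and 329 against 0, 0 and 2.01, while the formin gene DIAPH2 had a log2 ratio of 0.02, so the 2-fold limit was passed by the antisense locus alone. MCF2L-AS1 read 467, 327 and 440 against 2.87, 0 and 0, with MCF2L at 4012, 4216 and 4443 against 24.9, 13.0 and 4.02.

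Among the loci lower in HPAF-II cells, VIM-AS1 read 21.0, 0 and 0 in HPAF-II libraries, against 4355, 4329 and 4130 in PANC-1 siCtrl libraries, and VIM read 4248, 81.3 and 85.3, so HPAF-II replicate 1 held most of both. PTPRG-AS1 (3000 ± 660 in PANC-1 siCtrl), RASSF8-AS1 (2235 ± 281), STEAP1B-AS1 (1202 ± 60.1), ZNF433-AS1 (893.6 ± 29.2), and BVES-AS1 (674.7 ± 86.7) were listed at 0 in every HPAF-II library. HOXC13-AS read 1327, 1187 and 1133 in PANC-1 siCtrl and 0, 0 and 0.918 in HPAF-II libraries, and ZNF790-AS1 1016, 1063 and 1139 against 0, 2.29 and 1.84. Their partners ZNF433, ZNF790 and BVES were listed at 0 in HPAF-II cells too. Of 11 HOX antisense loci compared, 7 were at least 2-fold lower in HPAF-II cells and 3 higher, with a median log2 ratio of −1.88. Beside these stand 27.1% of all genes lower and 26.1% higher.

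**Figure D5:**
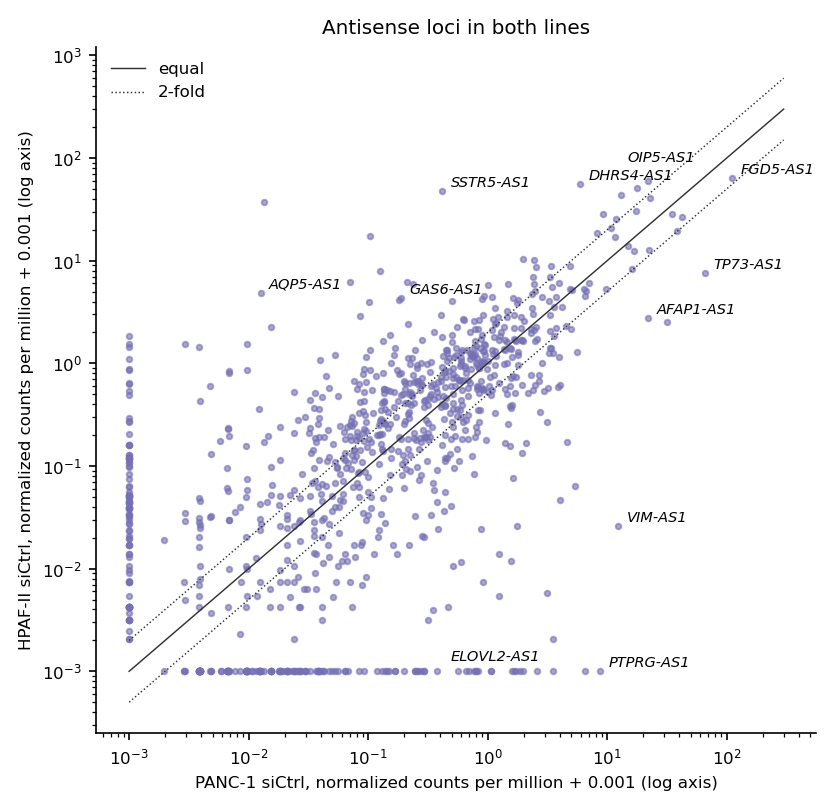
Each point is an antisense locus above 0 in either line, with the mean of 3 PANC-1 siCtrl libraries across and of 3 HPAF-II siCtrl libraries upwards, in normalized counts per 1000000 plus 0.001 on log axes; lines mark equality and a 2-fold difference. Points along the lower and left edges are loci listed at 0 in one line, and SSTR5-AS1 and VIM-AS1 lie far to either side of the diagonal.

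Loci seen in 1 line only went largely with their partners. At 30 loci PANC-1 siCtrl cells averaged 50 or more normalized counts and HPAF-II cells 0, among them ELOVL2-AS1, KAZN-AS1, HOXD-AS2, HMGA2-AS1, WT1-AS and FOXC2-AS1; 27 had a sense gene with its own row, and it was at 0 in 10 and at least 2-fold lower in 24. At 14 loci the reverse held, with all 14 partners in the table, 6 of them at 0 and 10 at least 2-fold higher in HPAF-II cells. The same counts were not made over all genes, so how usual this is between the lines is not known. Over 713 pairs the log2 ratios of partners between the lines had a Pearson r of 0.62 (Spearman 0.55), 0.65 in 521 pairs with shared exon bases and 0.57 in 168 without. Both partners were at least 2-fold higher in 133 pairs and lower in 111, and they went opposite ways in 20 and 22. Of the sense genes in these 713 pairs, 395 differed by at least 2-fold, 208 of them higher in HPAF-II cells.

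The abundant loci also changed places between lines. In normalized counts per 1000000, FGD5-AS1 stood at 63.8 ± 3.24 in HPAF-II and 111 ± 5.47 in PANC-1 siCtrl cells, OIP5-AS1 at 59.6 ± 4.13 and 22.1 ± 0.519, and DHRS4-AS1 at 55.6 ± 8.60 and 5.95 ± 0.773. TP73-AS1 stood at 7.64 ± 0.634 and 66.3 ± 0.981, AFAP1-AS1 at 2.74 ± 0.408 and 22.1 ± 0.661, and MAGI2-AS3 at 2.55 ± 0.388 and 31.7 ± 1.82. The libraries of the lines did not overlap at any of these 6 loci. TP73, in contrast to its antisense locus, was higher in HPAF-II cells, with a log2 ratio of 2.03 against −3.12. DHRS4-AS1, at the gene cluster of a retinal reductase with near-identical copies, rose with both knockdowns in PANC-1 cells as well, from 1902, 2379 and 1863 to 2953, 2738 and 2727 with siQKI and 3166, 3008 and 2577 with siRBFOX2 (log2 fold changes 0.46 and 0.51, limma adjusted p = 0.00235 and 0.0015).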

How the data were processed

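RNA-seq was analysed from 2 deposited tables. The authors aligned reads to hg38 with STAR 2.7.5a and deposited gene counts divided by DESeq2 size factors under FAST DB annotation, separately for PANC-1 and HPAF-II; these deposited values are a normalized signal, not raw counts. FastQC, Picard and SAMtools are also in the submitters' processing notes. The study's list of resources names featureCounts and another STAR version; which counter made these tables, and its strand setting, are not given in the sources used here. All values were whole multiples of 1 step per library (tolerance 0.01), but 82.1% to 84.8% of low values were multiples of 3 steps, so the depth in fragments is unknown and no counting interval is given. The class of loci described and the gene lists were chosen with earlier results of these data known; within that class, members were taken by symbol alone. Sense genes were found by symbol (1320 loci with their own row), and positions were compared with GENCODE 29, where 99.9% of 23657 genes overlapped.

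PANC-1 values were tested as log2(value + 1) with limma 3.58.1 (R 4.3.3; mean-variance trend, Benjamini-Hochberg over 22544 genes with a mean of at least 10), without a block, since same-numbered libraries did not deviate together. The fit was tested on simulated data. Log2 fold changes are on the log2(value + 1) scale, which can understate those of low genes. Where a library was at 0 they can instead exceed the ratio of group means, as for SIGLEC10-AS1 with siQKI (ratio of means 7.10). Line ratios used rescaled values plus 0.01. Named loci passed the threshold, averaged 50 or more, had libraries on one side of siCtrl and were among the 8 largest rises or falls, or among the 8 largest line ratios in each direction, the 10 highest means of a line, or in a gene list (values for its 2 to 4 highest and for calls that 1 library ended). Some loci that met this rule are not reported here. Python 3.11.15, numpy 2.4.6, pandas 2.3.3 and matplotlib 3.10.9 were used.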

Additional observations from a re-analysis of the deposited data

How the results depend on the processing

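Requiring a fold change of at least 1.5 gave 74 antisense loci with siQKI (63 higher; all genes 9.03%), 48 with siRBFOX2 (43 higher; 5.71%) and 30 between the knockdowns (4.33%). Leaving out 1 library gave 85 to 115, 65 to 82 and 41 to 62, with the lowest last count, 41, without siRBFOX2 replicate 3, and 485 to 514 between the lines. Between the lines, a pseudocount of 0.1 gave 320 and a 4-fold limit 267 in place of 496, both by construction; without rescaling the median of all genes moved to −0.25 and the count was 477 (233 higher, 244 lower). The replicate block gave 107, 82 and 57 calls. Same-numbered libraries deviated together with correlations of only −0.0325 to 0.0235, so no pairing by number was seen. With 3 libraries a group and many low genes among those correlated, this check cannot exclude a shared preparation. The fit of only the groups compared gave 107, 69 and 57, no mean-variance trend 114, 67 and 55, no filter 97, 76 and 55, a mean of 50 124, 89 and 66, and the 75th percentile 131, 90 and 59. No alternative reversed a named locus; of 66 called values 37 stayed past the threshold in every one. The planned edgeR test was not run, because whole reads could not be recovered. Depth in fragments is unknown, and loci under a mean of 50 gave few calls.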
